A study of Homo sapiens with 4 samples.

Results

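DEAD and DEAH box proteins are RNA helicases, named for the amino acids of a motif that binds and hydrolyses ATP. The genes described here are the rows of a table of gene expression in HEK-293 cells whose symbol is DDX or DHX followed by a number and at most 1 letter and that lie on the main chromosomes. There were 56 such genes among 24934 rows, and 49 of them reached 1 FPKM (sequenced fragments corrected for the length of the transcript and the size of the library) in at least 1 library. The choice was made by name alone, so it also took in DDX12P, a pseudogene, and DDX26B, an older symbol of INTS6L. It was made with an earlier look at the same data in hand, in which DDX10 had been seen to be higher after knockdown.

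These enzymes use ATP to unwind short RNA duplexes, to strip proteins from RNA or to clamp onto it. Most act in large assemblies: the pre-ribosomes of the nucleolus, the spliceosome, and the particles that export, translate or degrade mRNA. DEAD box proteins tend to open short helices locally, whereas many DEAH box proteins translocate along a strand and are switched on by proteins with a G-patch.

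HEK-293 is an established line of human embryonic kidney cells. The cells were transfected for 48 h with 10 nM of siRNA, and the 4 libraries of RNA were si4 and si5, a pair of different siRNAs against ZSCAN5A, si1 against ZSCAN5B, and a scrambled control siRNA. ZSCAN5A and ZSCAN5B encode zinc finger proteins with a SCAN domain, and the study asked which transcripts depend on each. Each treatment is 1 library, so no difference below has a replicate check, and the 3 siRNA libraries are all set against the same control library, which makes the ratios dependent on each other.

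ZSCAN5A stood at 30.2% of its control level with si4, 29.5% with si5 and 105% with si1. ZSCAN5B was at 36.6%, 73.4% and 105%, from only 6, 17 and 16 fragments against 15 in the control. In these few fragments it was not lower with its own siRNA, and si1 is called here the library labelled ZSCAN5B knockdown. The paper, by contrast, reported lower ZSCAN5B with si1 by qRT-PCR and by Western blot. Its qRT-PCR also had ZSCAN5D lower with si4 and si5, and ZSCAN5B higher with si4. Steps between low FPKM values put the depth of si4, si5 and si1 at 1.09, 1.54 and 1.02 times that of the control. Of the markers of HEK-293 cells, KRT8, KRT18, VIM, NEFL, NEFM and LHX1 were above 1 FPKM in every library and PAX2 was between 0.584 and 1.16 FPKM. Markers of leukocytes (PTPRC), hepatocytes (ALB), endothelium (PECAM1) and germ cells (DAZL) were at most at 0.0335 FPKM. DDX4, a helicase that also marks germ cells, was at most at 0.0576 FPKM. COL1A1 of fibroblasts was between 1.10 and 1.85 FPKM and highest in the control.

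The sequences of the siRNAs are shown first because each guide strand can also pair with helicase transcripts through its seed. Guides are the reverse complement of the target sequences the study lists, 5′ to 3′, with bases 2 to 8 in capitals.
si4: tTACACGTaaacctcttctcg
si5: tCTCTTGTggatgactagctt
si1: tAAATGATttattgcacacgt
On GRCh37 chromosome 19 the si4 target lies from 56733332 to 56733352 and the si5 target from 56733307 to 56733327, both on the minus strand in the coding sequence of exon 6 of 6 of ZSCAN5A. The si1 target lies from 56701591 to 56701611 on the same strand, in the coding sequence of exon 5 of 5 of ZSCAN5B.

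Promoter windows, 250 bases before to 50 bases after a start site, are shown for DDX10, DDX21 and DDX17. Among expressed helicases DDX10 had the largest change, and DDX21 had the lowest ratio of si1 to the mean of si4 and si5. DDX17 was lower with all 3 siRNAs. The windows were taken from the RefSeq table of GRCh38.p14 promoters, and each matched GRCh37 at 1 place. Capitals mark CACGTG (E-box), TGACGTCA (the cAMP response element, CRE), GCATGCGC (the core of the NRF1 motif), CCGGAAGT (ETS) and AANATGGC (YY1) on either strand, of which neighbouring matches can overlap. DDX10 lies at chr11:108535546-108535845 on the plus strand, DDX21 at chr10:70715676-70715975 (first) and chr10:70716153-70716452 (second) on the plus strand, and DDX17 at chr22:38902267-38902566 on the minus strand.
DDX10: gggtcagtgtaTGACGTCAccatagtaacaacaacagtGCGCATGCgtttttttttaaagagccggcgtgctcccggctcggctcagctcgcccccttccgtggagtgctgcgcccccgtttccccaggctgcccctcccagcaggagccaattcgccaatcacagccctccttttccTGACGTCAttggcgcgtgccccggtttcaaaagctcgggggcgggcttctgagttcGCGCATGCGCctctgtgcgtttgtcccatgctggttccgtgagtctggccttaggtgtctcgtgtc
DDX21, first: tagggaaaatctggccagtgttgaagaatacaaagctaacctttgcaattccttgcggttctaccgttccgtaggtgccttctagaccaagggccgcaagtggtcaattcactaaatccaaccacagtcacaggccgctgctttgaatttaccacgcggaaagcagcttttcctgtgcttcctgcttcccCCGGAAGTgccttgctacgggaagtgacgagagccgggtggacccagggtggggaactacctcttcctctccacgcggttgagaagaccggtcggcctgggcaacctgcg
DDX21, second: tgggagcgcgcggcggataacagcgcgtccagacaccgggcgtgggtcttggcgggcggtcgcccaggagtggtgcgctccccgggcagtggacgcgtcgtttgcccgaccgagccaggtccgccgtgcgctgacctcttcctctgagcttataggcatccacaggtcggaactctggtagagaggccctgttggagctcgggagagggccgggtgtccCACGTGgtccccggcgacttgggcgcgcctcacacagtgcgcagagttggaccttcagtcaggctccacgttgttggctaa
DDX17: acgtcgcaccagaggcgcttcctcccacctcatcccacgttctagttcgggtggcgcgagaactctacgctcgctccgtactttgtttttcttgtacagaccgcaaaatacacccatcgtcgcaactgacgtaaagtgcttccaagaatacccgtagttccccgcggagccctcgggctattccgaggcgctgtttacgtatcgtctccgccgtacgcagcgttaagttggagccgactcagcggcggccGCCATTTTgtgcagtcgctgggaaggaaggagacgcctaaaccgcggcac
The DDX10 window held a pair of CREs, starting 239 and 72 bases before the start site, and matches to the NRF1 core that started 212, 16 and 14 bases before it, the last pair overlapping. The first DDX21 window had an ETS match 60 bases and the second an E-box 31 bases before the start, and in DDX17 a YY1 match began on the first transcribed base. A CRE was found in 1.85% of all 35116 promoters of the table, in 2.84% of 14986 promoters of genes expressed here and in 5 of 58 promoters of 44 expressed helicases, those of DDX10, DDX19A, DDX28, DDX51 and DHX36. The ETS match was in 4.14%, 7.38% and 20.7% of the same promoters, the E-box in 7.26%, 9.41% and 15.5%, the NRF1 core in 3.05%, 4.76% and 8.62%, and the YY1 match in 6.58%, 9.26% and 17.2%. The GC-box, GGGCGG, was in 44.95%, 66.6% and 58.6%, and ATTGG, the complement of the CCAAT box, was in 34.6%, 34.8% and 43.1%. These 2 are not marked in the windows. The motifs are common promoter elements whose choice was not made before the windows were read, and a match is only a run of letters. DDX18 and DDX49 had no entry in the promoter table.

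The helicases covered a wide range of levels. In the control library the 49 expressed genes ran from 1.29 FPKM for DDX60 to 185 FPKM for DDX39B, with a median of 22.2 FPKM against 9.95 FPKM over all genes at that limit. The 5 highest were DDX39B, which loads export factors onto spliced mRNA and acts in early spliceosome assembly, DDX17 (138 FPKM) and DDX5 (124 FPKM), closely related helicases that also act as co-regulators of transcription, DDX3X (125 FPKM), a translation factor for mRNAs with structured leaders, and DDX21 (72.2 FPKM), a nucleolar helicase that binds rRNA and Pol I chromatin. DDX39B was first in every library. DDX17, DDX3X and DDX5 held the next 3 places in all of them but changed order, and DDX21 held place 5 in all but si1, where it was at 7 behind DDX1 and DHX9. Of the 48 steps between neighbours in this order, the ranges over the 4 libraries did not overlap in 16, so most neighbours cannot be ranked. All 56 genes together made up 0.350%, 0.338% and 0.349% of the summed FPKM in the siRNA libraries, given as si4, si5 and si1, and 0.359% in the control library.

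**Figure D1:**
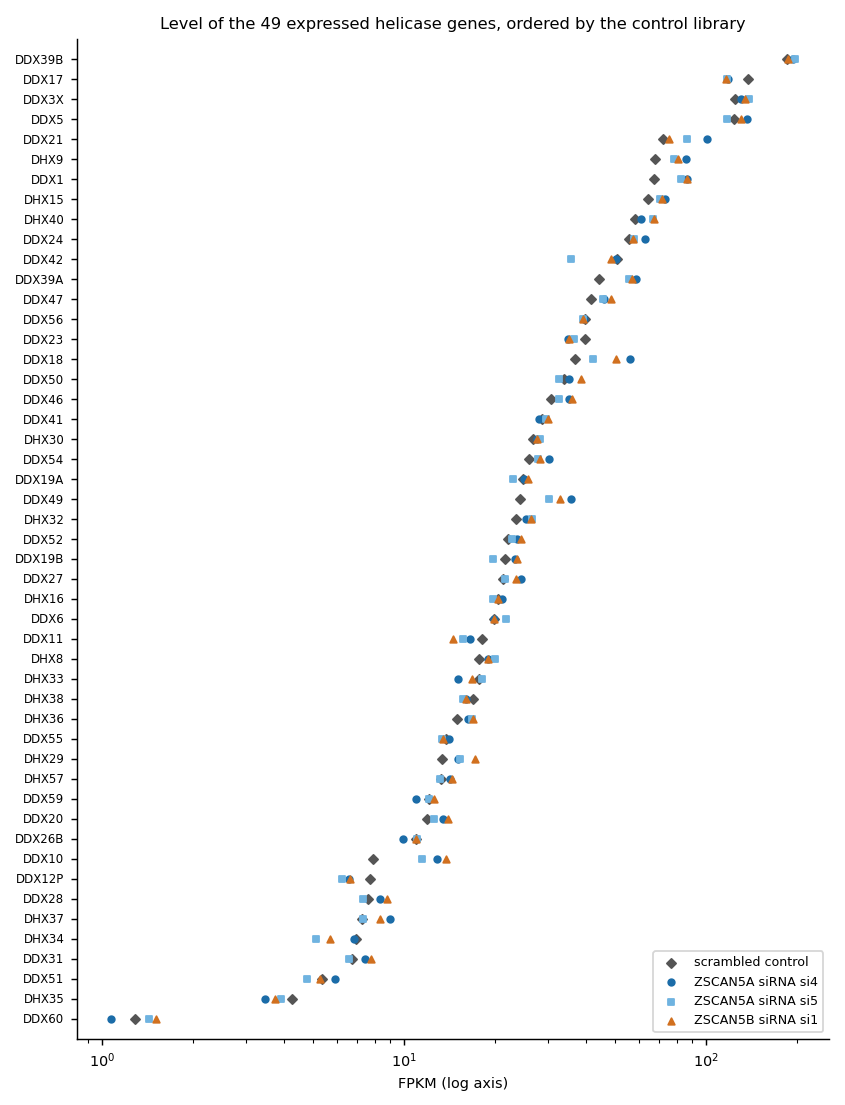
FPKM of the 49 expressed helicase genes on a log axis, ordered by the control library (diamonds), with si4 (circles), si5 (squares) and si1 (triangles), 1 library each. Levels run from about 1 FPKM for DDX60 to 185 FPKM for DDX39B in the control, and the points of most genes overlap those of their neighbours, whereas the control diamond of DDX10 stands clear to the left of its siRNA points.

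Changes after knockdown were small for nearly all helicases. Against the control, the mean of si4 and si5 was over 1.5-fold higher for 1 of 49 genes, DDX10, beside 0.677% of 12993 genes tested, and over 1.5-fold lower for 0 of 49, beside 3.11%. With si1 the same single gene was over 1.5-fold higher, beside 0.844% of 12921 genes, and 0 were over 1.5-fold lower, beside 3.17%. DDX10 was known to be higher when the genes were chosen, so its calls, here and at the lower limit next, are no evidence about the group. No other expressed helicase passed 1.5-fold in either comparison. At a lower limit, 0.32 on the log2 scale, 6 helicases were higher with ZSCAN5A knockdown, DDX10, DDX49, DDX18, DDX21, DDX39A and DDX1, beside 5.14% of all genes, and 0 were lower, beside 13.4%. With si1 there were also 6, with DHX29 in place of DDX21, beside 6.7% of all genes, and again 0 lower, beside 12.8%. Comparisons with ZSCAN5A and ZSCAN5B siRNAs share the control library, so a low control value of a gene raises both.

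The middle of the group lay a little above the middle of all genes. The median log2 ratio of the helicases was 0.06 for the mean of si4 and si5, beside -0.02 for all genes, and 0.11 for si1, beside -0.01. Of the 49 genes 30 were higher and 19 lower with ZSCAN5A knockdown, and 34 were higher and 15 lower with si1. The shares higher were 61.2% and 69.4%, beside 46.7% and 48.5% of all genes. Singly, si4 and si5 gave medians of 0.09 and 0.04. The direction depends on how the libraries are put on one scale. When every library was scaled to the same summed FPKM, the median of all genes moved to -0.17 and -0.15. That of the helicases moved to -0.10 and -0.03, and their split became 11 higher and 38 lower, and 20 higher and 29 lower. With medians below 0, most of all genes were lower on that scale too, and their exact share was not computed. For the ZSCAN5A mean 19 helicases were above the control as deposited and below it on that scale, DDX20, DDX24, DDX27, DDX28, DDX31, DDX39B, DDX3X, DDX41, DDX46, DDX47, DDX5, DDX52, DDX6, DHX8, DHX30, DHX32, DHX36, DHX40 and DHX57. With si1 there were 14, DDX19A, DDX19B, DDX21, DDX24, DDX39B, DDX3X, DDX41, DDX5, DDX52, DDX54, DDX59, DHX30, DHX57 and DHX8. Relative to the median of all genes, a difference that scaling leaves nearly as it is, the helicases were 0.08 and 0.12 higher on the log2 scale, or 0.05 and 0.09 among genes that reached 5 FPKM.

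The position of the control among the libraries gave the same picture. It was below all 3 siRNA libraries for 24 of 49 helicases, beside 29.9% of all genes, and above all 3 for 9, beside 36.2%. Scaled to the same summed FPKM, the control was below all 3 for 7, DDX1, DDX10, DDX18, DDX39A, DDX49, DHX29 and DHX9, beside 10.98% of all genes, and above all 3 for 24, beside 62.4%. By a stricter rule, chosen after seeing the data, in which the gap to the nearest siRNA library had to exceed the range of the 3, the control was below for 11, beside 12.3% of all genes, and above for 5, beside 15.5%. The 3 siRNA libraries spanned a median of 0.14 on the log2 scale per helicase and at most 0.49, while the counting error of a ratio, estimated from depth and transcript length, was a median of 0.06 and at most 0.20 either way.

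**Figure D2:**
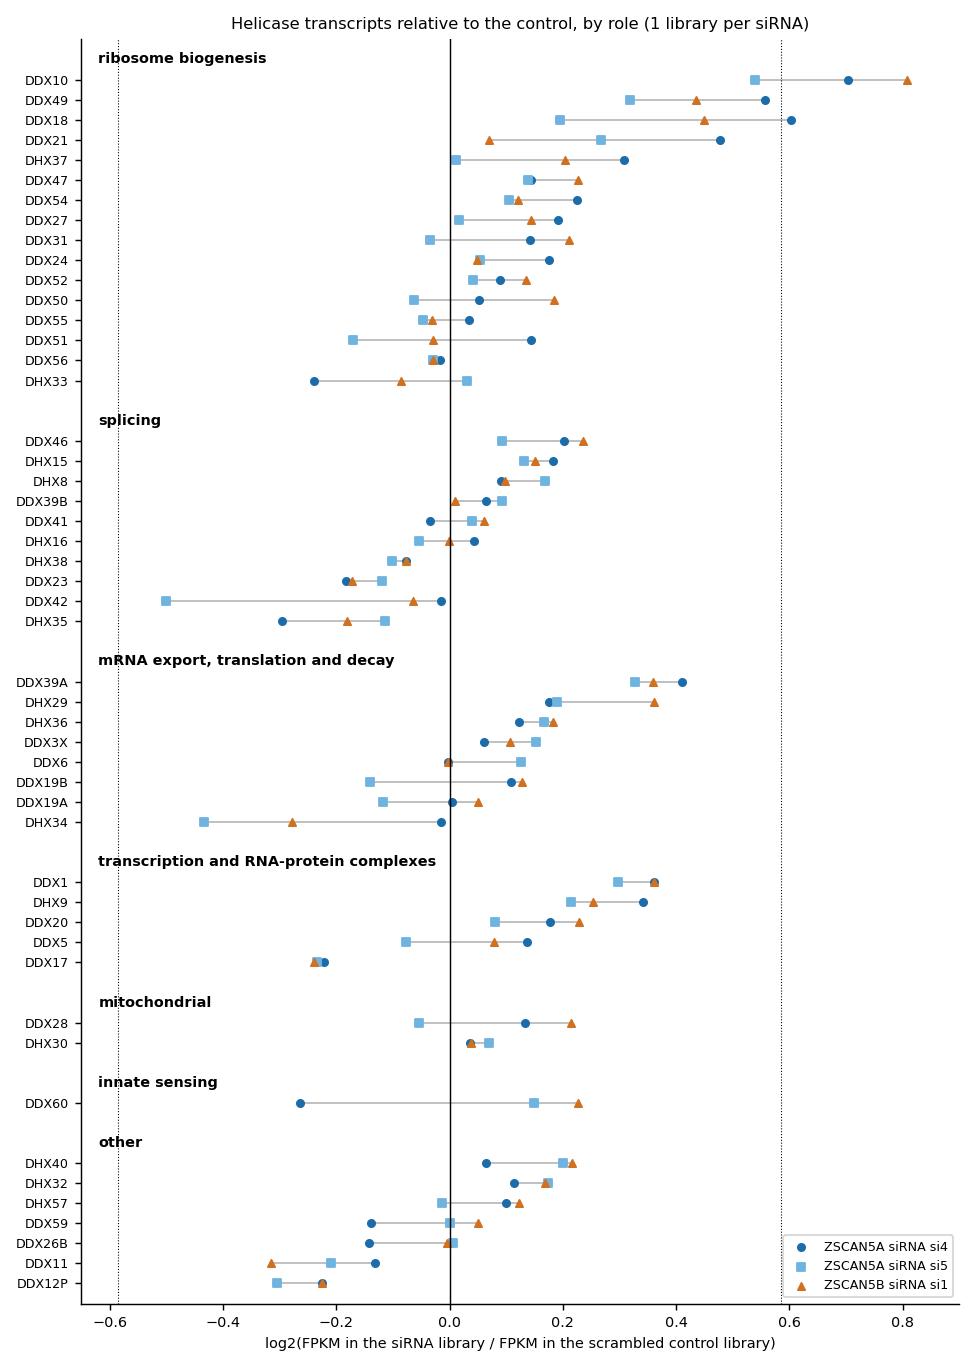
log2 ratio of FPKM to the scrambled control for each of the 49 expressed helicases, grouped by role, with si4 as circles, si5 as squares and si1 as triangles, 1 library each. Dotted lines mark 1.5-fold, and on this scale DDX10 lies to the right of or near the upper line with all 3 siRNAs (0.70, 0.54 and 0.81), while DDX42 and DHX34 reach furthest down, with si5 alone.

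The 16 helicases of ribosome biogenesis held the largest increases. In the nucleolus such enzymes release small nucleolar RNAs from pre-rRNA and remodel the precursors of both subunits. Their median log2 ratio was 0.11 with ZSCAN5A knockdown and 0.14 with si1, and 11 and 12 of the 16 were higher, beside 46.7% and 48.5% of all genes. The control was below all 3 siRNA libraries for 10, beside 29.9% of all genes, and above all 3 for 1, DDX56, beside 36.2%. The ZSCAN5A median was 0.16 with si4 alone and 0.04 with si5 alone. Scaled to the same summed FPKM, the medians were -0.04 for ZSCAN5A and 0.00049 for si1.

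DDX10, on chromosome 11 from 108535816 to 108811648, is the human relative of a yeast helicase that frees a small nucleolar RNA from the small-subunit precursor. It was at 12.8 FPKM with si4, 11.5 with si5 and 13.8 with si1, against 7.89 in the control. All 3 siRNA libraries were thus above the control, by more than they differed from each other. The fold over the control was 1.63 (95% counting interval 1.52 to 1.74) with si4, 1.45 (1.36 to 1.55) with si5 and 1.75 (1.64 to 1.87) with si1, the intervals covering counting error only. The si5 library alone was thus short of 1.5-fold. The mean of si4 and si5 was 1.54-fold higher and fell under the limit, at 0.47 on the log2 scale, when libraries were scaled to the same summed FPKM, whereas si1 stayed past it at 0.67. Among 8653 genes at 5 FPKM or more in every library, FLNA, SAP30BP and CDC34 followed DDX10 most closely over the 4 libraries. The measure was the Pearson correlation of log2 FPKM, a likeness that any gene low in the control and ordered in the same way would share. It takes no account of the size of the change, which was smaller in these genes than in DDX10.

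DDX49, on chromosome 19 from 19030484 to 19039442, is related to a yeast helicase of small-subunit maturation. It was at 35.8, 30.3 and 32.8 FPKM with si4, si5 and si1 and 24.3 FPKM in the control. It was 1.36-fold higher for the mean of si4 and si5 and 1.35-fold higher with si1, and every siRNA library was above the control by more than the siRNAs differed. DDX18, on chromosome 2 from 118572255 to 118589953, acts on the large-subunit precursor. Its FPKM was 56.1 with si4, 42.4 with si5 and 50.5 with si1, against 37.0 in the control. The siRNA libraries again were all higher, yet si4 and si5, which target the same gene, differed by more (0.41 on the log2 scale) than si5 differed from the control (0.20). With si4 alone it was past 1.5-fold together with DDX10 among the expressed helicases, and with si5 alone no expressed helicase was. The share of all genes past 1.5-fold with a single siRNA was not computed.

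DDX21, on chromosome 10 from 70715892 to 70744279, was higher with both ZSCAN5A siRNAs than with si1. It was at 100.4 FPKM with si4, 86.8 with si5 and 75.7 with si1, against 72.2 in the control. Its log2 ratios to the control were 0.48, 0.27 and 0.07. The siRNAs si4 and si5, which target the same gene, thus differed (0.21 on the log2 scale) about as much as si5 and si1 did. The mean of si4 and si5 was 1.30-fold and si1 1.05-fold above the control, and scaled to the same summed FPKM si1 was below it, at -0.07 on the log2 scale. Between si1 and the mean of si4 and si5, DDX21 had the lowest log2 ratio of all expressed helicases, -0.31, and that value does not use the control. DDX50, its closest relative, lies on the same chromosome and ends 9288 bases before DDX21. It had 35.2, 32.5 and 38.6 FPKM with si4, si5 and si1 and 34.0 in the control, with si5 on the other side of the control from si4 and si1. DDX21 exceeded DDX50 by 2.85 times with si4, 2.67 with si5 and 1.96 with si1, against 2.12 times in the control.

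The other helicases of this list changed less. DHX37, which separates U3 small nucleolar RNA from pre-rRNA, was at 8.96, 7.30 and 8.34 FPKM against 7.24, with si5 next to the control. DDX47, DDX54, DDX27, DDX24 and DDX52 were higher with all 3 siRNAs as deposited, with log2 ratios from 0.02 to 0.23, and each of them was below the control in 1 or both comparisons at the same summed FPKM. DHX33, a nucleolar DEAH box protein linked to rDNA transcription, was the lowest of the list at 15.1, 18.2 and 16.8 FPKM against 17.8, with si5 above the control and si4 and si1 below it. DDX51, which acts on the 3′ end of 28S rRNA, was above the control with si4 and below it with si5 and si1, at 5.93, 4.77 and 5.26 FPKM against 5.36, and DDX56 at 39.4, 39.1 and 39.0 FPKM against 39.9 hardly moved.

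**Figure D3:**
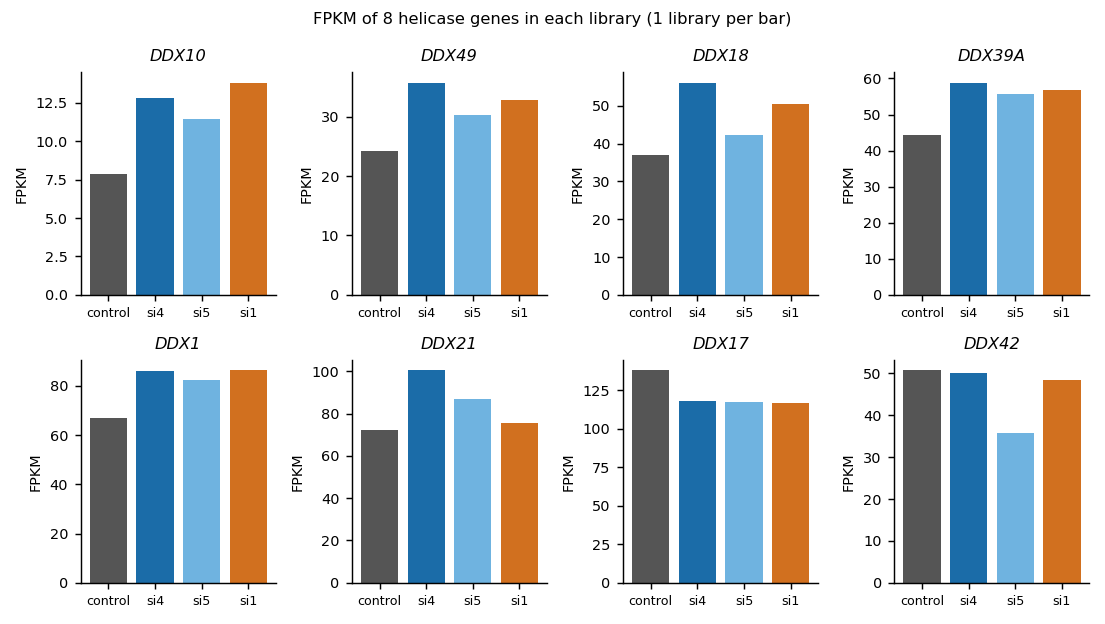
FPKM of 8 helicase genes in the control, si4, si5 and si1 libraries, 1 library per bar, each axis starting at 0. DDX10, DDX49, DDX18, DDX39A, DDX1 and DDX21 are lowest in the control, DDX17 is highest there, and DDX42 stands apart only with si5 (35.9 FPKM against 50.7 in the control).

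The proteins that work with these helicases on pre-ribosomes were also a little higher. Of 33 genes of the small-subunit processome, the particle in which DDX10 acts, 33 were higher as deposited in both comparisons, beside 46.7% and 48.5% of all genes. Their median log2 ratios were 0.16 and 0.21, and the control was below all 3 siRNA libraries for 24, beside 29.9% of all genes. None passed 1.5-fold in either direction. At 0.32 on the log2 scale 5 and 4 passed, all upward, beside 5.14% and 6.7% of all genes. DCAF13 (20.6, 18.6 and 21.4 FPKM against 15.0) and MPHOSPH10 (18.4, 17.3 and 18.6 against 14.2) were highest by ratio. Of 26 large-subunit factors 22 and 24 were higher as deposited, beside the same 46.7% and 48.5%, with medians of 0.20 and 0.25. None passed 1.5-fold, and 7 and 9 passed 0.32 upward on the log2 scale, beside the same 5.14% and 6.7%. RRS1 was at 16.4, 13.04 and 15.0 FPKM against 10.8 and GNL2 at 50.2, 46.4 and 48.8 against 37.3, whereas MDN1, a very large AAA ATPase, was at 6.67, 6.35 and 6.42 against 7.21. At the same summed FPKM the medians fell to 0.0070 and 0.07 for the small-subunit processome and to 0.04 and 0.12 for the large-subunit factors, and with si5 alone the first list stood at 0.09.

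Helicases of splicing showed no common direction as deposited. The spliceosome uses a series of them in fixed order, among them DDX46 and DDX23 in assembly and activation, DHX16 and DHX38 around the catalytic steps, DHX8 in release of the mRNA and DHX15 in disassembly. The median log2 ratio of the 10 was 0.00 in both comparisons, and 5 were higher and 5 lower in each, beside 46.7% and 48.5% of all genes higher. The control was below all 3 siRNA libraries for 4, beside 29.9% of all genes, and above all 3 for 4, beside 36.2%. None was past 0.32 on the log2 scale in either comparison as deposited. At the same summed FPKM the medians of these helicases were -0.15 and -0.13, beside -0.17 and -0.15 for all genes.

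Among them DDX46 was at 35.3, 32.7 and 36.1 FPKM with si4, si5 and si1 against 30.7, DHX15 at 73.0, 70.5 and 71.5 against 64.4, and DHX8 at 18.9, 20.0 and 19.02 against 17.8. As deposited these 3 were higher in every siRNA library. DDX23 was lower throughout, at 35.0, 36.6 and 35.2 FPKM against 39.7, and so was DHX35, at 3.47, 3.93 and 3.75 against 4.26. DDX42, a helicase of the U2 snRNP, on chromosome 17 from 61851567 to 61896677, was at 50.2 FPKM with si4, 35.9 with si5 and 48.5 with si1, against 50.7 in the control. Its si5 library stood alone, at -0.50 on the log2 scale, the largest decrease of any expressed helicase in a single library. The other siRNA directed at the same gene, si4, gave -0.01.

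The wider spliceosome moved upward by a small amount as deposited, with 18 and 20 of 24 genes higher, beside 46.7% and 48.5% of all genes. Its medians of 0.09 and 0.13 turned to -0.07 and -0.01 when libraries were scaled to the same summed FPKM. CWC22, at 14.3, 13.8 and 13.2 FPKM against 10.3, and BUD31, at 60.7, 55.9 and 54.1 against 45.2, lay at the upper end. At the lower end were SF3A1, at 19.8, 18.4 and 19.7 FPKM against 26.1, and SF3A2, at 26.2, 28.4 and 25.8 against 34.9, both subunits of the U2 snRNP. None of the 24 passed 1.5-fold. At a limit of 0.32 on the log2 scale 2 and 1 were higher, beside 5.14% and 6.7% of all genes. By the same limit 3 and 3 were lower, beside 13.4% and 12.8% of all genes. Of the 17 G-patch proteins, which activate DEAH box helicases, 10 and 8 were higher, beside the same shares of all genes, with medians of 0.03 and -0.00. GPATCH4 was at 25.1, 20.9 and 23.2 FPKM against 17.4 and GPATCH3 at 5.36, 4.72 and 4.93 against 4.43, while CHERP was at 12.1, 10.9 and 10.4 against 15.1 and GPATCH8 at 11.9, 11.9 and 11.4 against 14.7.

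Of the 8 helicases of mRNA export, translation and decay, 5 and 6 were higher, beside 46.7% and 48.5% of all genes. Their median log2 ratios of 0.09 and 0.12 turned to -0.07 and -0.02 when libraries were scaled to the same summed FPKM. With si5 alone the first was 0.14. DDX39A, on chromosome 19 from 14519610 to 14530195, exports mRNA as the relative of DDX39B. It was at 58.9, 55.6 and 56.8 FPKM with si4, si5 and si1 and 44.3 in the control, and so 1.29-fold higher for ZSCAN5A and 1.28-fold higher with si1. DDX39B itself was at 194, 197 and 186 FPKM against 185. The ratio of DDX39A to DDX39B was therefore 0.304, 0.282 and 0.305 in the siRNA libraries and 0.239 in the control, and such a ratio within a library does not depend on scaling.

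DHX29, which helps ribosomes scan structured leaders, was at 15.1, 15.3 and 17.2 FPKM against 13.4, with si1 above both ZSCAN5A siRNAs and 1.28-fold over the control. DHX36, which resolves G-quadruplexes, was at 16.3, 16.8 and 17.0 FPKM against 14.9. DDX3X was at 131, 139 and 135 FPKM against 125. As deposited these 3 were higher in every siRNA library. DHX34, a factor of nonsense-mediated decay, was lower in all 3, at 6.85, 5.13 and 5.71 FPKM against 6.92, with si4 next to the control and si5 at -0.43 on the log2 scale.

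DDX19A and DDX19B, which release export factors at the nuclear pore, are near-copies that lie 13092 bases apart on chromosome 16, so the split of reads between them is uncertain. DDX19A was at 24.9, 22.9 and 25.7 FPKM against 24.8, and DDX19B at 23.3, 19.7 and 23.7 against 21.7. In both genes si5 was below the control and si4 and si1 above it.

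Among 5 helicases of transcription and RNA-protein complexes, 4 were higher in each comparison, beside 46.7% and 48.5% of all genes. Their median log2 ratios were 0.13 and 0.23. The first was 0.08 with si5 alone and turned to -0.02 at the same summed FPKM. DDX1, on chromosome 2 from 15731770 to 15771225, a component of the tRNA ligase complex, was at 86.2, 82.5 and 86.3 FPKM against 67.1. The siRNA libraries lay within 0.06 of each other on the log2 scale and the nearest was 0.30 above the control, so the fold was 1.26 for ZSCAN5A and 1.28 with si1. DHX9, which unwinds RNA and R-loops, was at 85.6, 78.4 and 80.6 FPKM against 67.6. DDX20, of the SMN complex that assembles snRNPs, was at 13.5, 12.6 and 13.9 FPKM against 11.9.

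DDX17 and DDX5 parted. DDX17, on chromosome 22 from 38879443 to 38902345, was at 118, 117 and 117 FPKM with si4, si5 and si1 and 138 in the control, lower by 0.22, 0.23 and 0.24 on the log2 scale. The siRNA libraries were within 0.02 of each other, closer than for any helicase but DDX56. DDX5 was at 136, 117 and 131 FPKM against 124, on both sides of the control. The ratio of DDX5 to DDX17 was 1.15, 1.00 and 1.12 in the siRNA libraries and 0.8997 in the control, again without any part played by scaling.

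The remaining roles held few expressed genes. DHX30 and DDX28, which act on the mitochondrial ribosome, were at 27.5, 28.2 and 27.5 FPKM against 26.8 and at 8.34, 7.33 and 8.82 against 7.61. DDX60, an interferon-induced gene, was the lowest of the expressed helicases at 1.08, 1.43 and 1.51 FPKM against 1.29. Among these it had the widest spread over the siRNAs, with si4 below the control and the others above it. It also had the highest ratio of si1 to the mean of si4 and si5 among them, 1.21-fold. DHX40 (60.8, 66.7 and 67.5 FPKM against 58.1), DHX32 (25.4, 26.5 and 26.4 against 23.5) and DHX57 (14.2, 13.2 and 14.5 against 13.3) lay above the control in 3, 3 and 2 of the siRNA libraries, and DDX26B (9.96, 11.04 and 10.97 against 10.998) was lower with si4 only beyond its counting error.

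DDX11, a DNA helicase of sister chromatid cohesion, and DDX12P, a pseudogene copied from it, stood among the lowest ratios. DDX11 was at 16.6, 15.7 and 14.6 FPKM with si4, si5 and si1 against 18.1, and DDX12P at 6.61, 6.26 and 6.61 against 7.73. The control was above all 3 for both. As they share much of their sequence, reads may be split between them, and their summed FPKM was 23.2, 21.9 and 21.2 against 25.9.

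The 7 helicases under 1 FPKM in every library included all 5 of the germline and Y chromosome list. DDX4, the germ cell helicase Vasa, was between 0.0207 and 0.0576 FPKM. DDX3Y was listed at 0 in 3 libraries and at 0.00392 FPKM with si1, DDX53 at 0 in all but the control and DDX43 at 0 with si5 and si1. DDX25 was at 0.572, 0.253 and 0.260 FPKM against 0.317, which is 59, 37 and 25 fragments against 30, and so was higher with si4 only. Of the innate sensing list, DHX58, which encodes the sensor LGP2, was at 0.0714, 0.101 and 0.0488 FPKM against 0.128 (11, 22 and 7 fragments against 18), and DDX60L was between 0.474 and 0.687 FPKM.

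Helicases that carry other names gave a point of reference. EIF4A1, the DEAD box helicase of translation initiation, was at 899 FPKM with si4, 826 with si5 and 805 with si1 against 711, and SKIV2L2, of the nuclear exosome, at 31.3, 33.2 and 32.2 against 25.4. EIF4A2, its paralog in initiation, was lower at 108, 128 and 115 FPKM against 131, and SNRNP200 at 64.4, 66.2 and 63.7 against 66.5 stayed close to the control. Of 10 such genes 8 were expressed, 5 and 4 were higher, beside 46.7% and 48.5% of all genes, and 0 passed 1.5-fold. Their median log2 ratios, 0.03 and 0.02, turned to -0.12 and -0.12 at the same summed FPKM.

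**Figure D4:**
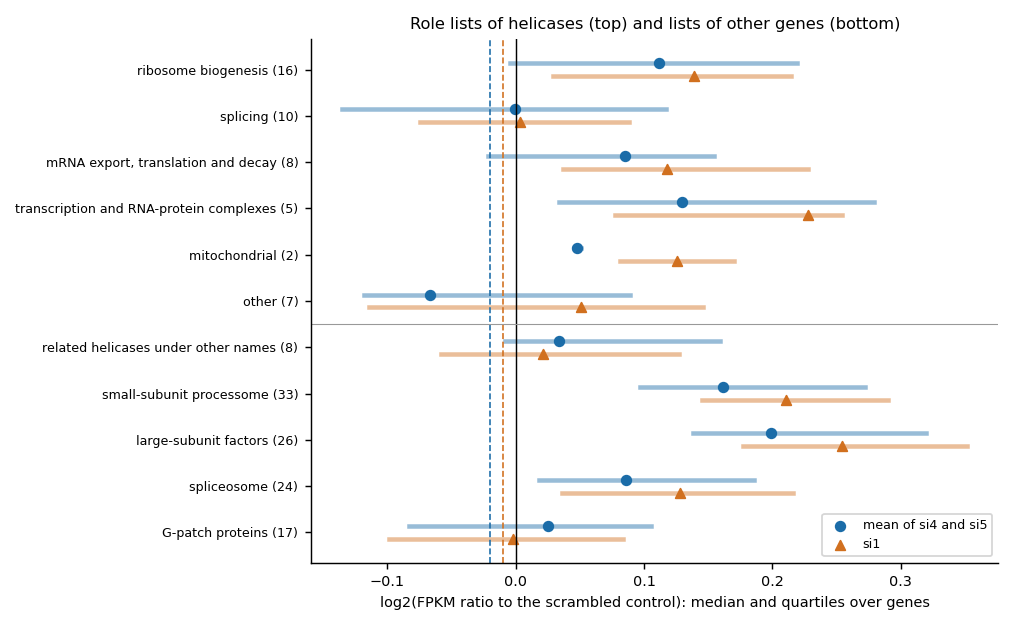
Median (symbols) and quartiles (bars) of the log2 ratio to the control for the role lists of helicases above the grey line and lists of other genes below it, for the mean of si4 and si5 (circles) and si1 (triangles), with the number of expressed genes in parentheses. Dashed lines are the medians of all genes, -0.02 and -0.01, and the large-subunit factors lie furthest right at 0.20 and 0.25, while splicing helicases lie at 0.00. At the same summed FPKM every list lies further left, and the ribosome biogenesis list is at -0.04 for the mean of si4 and si5.

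A comparison of si1 with the mean of si4 and si5 leaves out the control. In it 0 of 49 helicases were over 1.5-fold higher, beside 0.683% of 12888 genes, and 0 over 1.5-fold lower, beside 0.628%. All ratios lay between 1.24-fold lower, for DDX21, and 1.21-fold higher, for DDX60. Between the ZSCAN5A siRNAs, 33 helicases were higher with si4 than with si5 and 16 lower, beside 54.4% of all genes higher. The median difference was 0.08, beside 0.02 for all genes.

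Helicase transcripts with a match to a guide's seed in the 3′ UTR are given for each library, since 48 of the 49 had an annotated 3′ UTR. The 7-base site of si4, ACGTGTA, was in 2 of 48, DHX33 and DHX35, beside 3.36% of 11995 expressed genes. Both had their lowest siRNA value with si4, at -0.24 and -0.30 on the log2 scale, whereas 28.3% of the helicases without the site were lowest there. Over all genes, 70.7% of those with the site and 31.1% of those without were lowest with si4. The site of si5, ACAAGAG, was in 3 of 48, DDX18, DDX51 and DDX52, beside 11.98% of expressed genes, and all 3 were lowest with si5, beside 53.3% of the helicases without it. Over all genes the shares lowest with si5 were 45.2% with the site and 37.5% without. The si1 site, ATCATTT, was in 9 of 48, beside 23.4% of expressed genes. Of these 9 only DDX21 was lowest with si1, beside 12.8% of the helicases without the site, while over all genes the shares were 38.9% with it and 26.2% without. DDX42 and DHX34, which were lowest with si5, held no si5 site. What part seeds had in any of these values was not tested.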

How the data were processed

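Total RNA of HEK-293 cells was made into mRNA libraries (labels and methods name different kits), 1 per siRNA. Per the labels, the authors used CASAVA 1.8.2, Trimmomatic 0.30, TopHat2 2.1.0 and Cufflinks 2.2.1 with hg19, and deposited FPKM values, which divide fragments by transcript length and library size. Fragment counts were not used here. Where low FPKM values of the 4 libraries stood in whole-number proportions (tolerance 0.05%, 74.0% of 1745 genes under 0.1 FPKM), relative depth and fragments were read from them. From these the libraries held an estimated 58900000 (si4), 83400000 (si5), 54800000 (si1) and 54000000 (control) fragments. The precision of higher genes was estimated from that depth and the GENCODE transcript length, with 95% Clopper-Pearson intervals of counting error only.

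Ratios of FPKM were taken with no pseudocount over all genes that reached 1 FPKM in one of the libraries compared, and called past 1.5-fold. There was no test in the main analysis, since each group is 1 library. The members and lists were chosen with earlier results of these data known, and 1 gene that meets the rule is not reported here. Named are DDX10, DDX21, members past the limit, the 3 highest and 3 lowest ratios of each role list, the 5 highest levels, members under 1 FPKM or sharing sequence, 2 highest and 2 lowest partners per list and the 3 genes most like DDX10. Other members are named where a count or a seed site turned on them, after their values were seen. Promoters came from RefSeq (GRCh38.p14), and 3′ UTRs from GENCODE on GRCh37, which is the build of the table. Alternatives covered scaling, pseudocount, expression and fold limits, transcript length, summing of similar genes, single siRNAs and limma. Scripts were tested on simulated data. Python 3.11.15, NumPy 2.4.6, pandas 2.3.3, SciPy 1.17.1, matplotlib 3.10.9, R 4.3.3 and limma 3.58.1 were used.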

Additional observations from a re-analysis of the deposited data

How the results depend on the processing

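No paired analysis was possible because each group is 1 library. The single helicase past 1.5-fold with ZSCAN5A knockdown became 0 at the same summed FPKM, with a pseudocount of 1 FPKM, at a 2-fold limit and with si5 alone. It became 2 with si4 alone (DDX10 and DDX18) and without an expression limit (DDX10 and DDX43, the latter from about 1 fragment), and 6 at a limit of 0.32 on the log2 scale. For the single siRNAs the share of all genes was not computed. limma on log2(FPKM + 1), with si4 and si5 as a group of 2 against 1 control, gave 0 helicases at an adjusted p under 0.05 (lowest adjusted p 0.393), 5 of 49 at an unadjusted p under 0.05 beside 12.4% of 13044 genes, and 10 genes in all at the adjusted threshold. The si1 count of 1 became 3 without an expression limit (DDX4 and DHX58 added), 0 at 2-fold and 6 at a log2 limit of 0.32, and that of si1 against the ZSCAN5A siRNAs went from 0 to 2 without an expression limit. The ZSCAN5A median was 0.095 under median-ratio scaling, 0.094 after correction for transcript length and -0.10 at the same summed FPKM, and the si1 median was 0.15 after the length correction and -0.032 at the same summed FPKM. The control was below all 3 siRNA libraries for 7 and above for 24 helicases at the same summed FPKM, beside 10.98% and 62.4% of all genes. The other alternatives kept the counts within 1.5 times and the medians within the spread of the 3 siRNA libraries. Of 70 ratios of named helicases, 21 changed sign at the same summed FPKM, 4 under median-ratio scaling and 1 under upper-quartile scaling. After the length correction 7 did, counting that of DHX33 for ZSCAN5A, which only reached 0. Of 35 ratios for ZSCAN5A 3 changed sign with si4 alone and 6 with si5 alone. The depth leaves few fragments for genes far under 1 FPKM, such as DDX4 and DHX58, and the lack of replicates limits all genes.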
